A study of Mus musculus with 9 samples.

Results

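The collagen gene family was examined across the 9 brain libraries of the series, as all genes annotated as protein-coding whose symbol is Col, a number, the letter a and a number. The rule found 44 genes among the 21970 protein-coding genes and 56748 genes of the count table, and 42 of the 44 passed the filter on low counts and were tested. Col6a6 (1 to 11 counts a library) and Col10a1 (2 to 10 counts a library) did not pass it. Bulk RNA sequencing had been carried out on total RNA of brains without the cerebellum from 7-month-old mice, with 3 mice per genotype and 1 library per mouse. 5xFAD/Cd5l tg/wt mice carry the 5xFAD transgenes and, in addition, a transgene of mouse Cd5l driven by the human PDGF-B promoter, which is widely used for expression in neurons. 5xFAD mice carry mutant human amyloid precursor protein and presenilin transgenes driven by the neuronal Thy1 promoter and develop amyloid plaques. Wild-type mice carry neither. CD5L is a secreted protein of tissue macrophages, and the design sets its forced expression in the amyloid model against the amyloid model alone and against healthy brain. How the Cd5l transgene was distributed over cell types is not given in the labels.

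Collagens are secreted or membrane-bound proteins built from 3 chains wound into a helix, and each gene of the family encodes 1 chain. Type IV chains form the sheet-like network of basement membranes, which in the brain surround the endothelial tube and the mural cells of every vessel. Fibrillar collagens such as types I and III are made mainly by fibroblasts of the meninges and of larger vessels. Other members bind to fibrils (the FACIT group), form beaded filaments (type VI), span the plasma membrane (types XIII, XVII, XXIII and XXV) or release anti-angiogenic fragments (the multiplexins XV and XVIII). The protein of Col25a1, a neuronal transmembrane collagen, was first isolated as a component of amyloid plaques.

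The libraries held 14575416 to 17865150 counts, of which collagen genes took 4559 to 7893. Cd5l had between 2553 and 3551 counts in 5xFAD/Cd5l tg/wt libraries, no count in any 5xFAD library and at most 1 count in a wild-type library. Levels are in CPM, the counts relative to the scaled library size. Thy1, whose promoter drives the 5xFAD transgenes, averaged 1834 ± 160.3 CPM in 5xFAD/Cd5l tg/wt brains, 1530.3 ± 79.0 CPM in 5xFAD and 635 ± 39.0 CPM in wild-type brains (mean ± SD, n = 3 each). The 8 neuron markers summed to 7093 to 7883 CPM in 5xFAD/Cd5l tg/wt brains, 7070 to 7343 CPM in 5xFAD and 7177 to 7444 CPM in wild-type brains. In earlier results of these data 3 libraries stood apart in regional markers, namely 5xFAD/Cd5l tg/wt replicates 2 and 3 and wild-type replicate 3. The 8 hindbrain and cerebellum markers summed to 94.0, 38.0 and 50.3 CPM in 5xFAD/Cd5l tg/wt brains, 89.3, 119.9 and 104.8 CPM in 5xFAD and 165.4, 94.5 and 763.9 CPM in wild-type brains, and the cerebellar marker Cbln3 reached 191.6 CPM in wild-type replicate 3 although the cerebellum is labelled as removed. Results of collagen genes are therefore also given without these 3 libraries where that ended or made a call. That fit keeps only replicate 1 of 5xFAD/Cd5l tg/wt. Its values in comparisons with this genotype therefore rest on 1 mouse and are not results of the genotype. A call lost in such a comparison cannot be told apart from the effect of having fewer mice. The p-values measure the spread between these 9 libraries, and each library is labelled as a separate mouse.

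Collagen counts together made up a smaller share of every 5xFAD library than of any other library. The 44 genes summed to 450.4 ± 10.3 CPM in 5xFAD/Cd5l tg/wt brains, 319.8 ± 33.1 CPM in 5xFAD and 419 ± 31.9 CPM in wild-type brains (mean ± SD, n = 3 each). In single libraries the sums were 462.2, 443.6 and 445.4 CPM in 5xFAD/Cd5l tg/wt brains, 301.7, 299.7 and 358.0 CPM in 5xFAD brains and 447.9, 424.2 and 384.8 CPM in wild-type brains, so that the 5xFAD libraries lay below all others. On a scale that allows genes to be compared, counts per gene length scaled to the same total in each library (TPM), the means over the 9 libraries spanned 0.171 (Col6a6) to 34.7 (Col6a1), with a median of 2.10. At least 10 TPM was reached by 6 members, which were Col6a1, Col4a2 (18.9), Col25a1 (18.8), Col9a3 (16.6), Col4a1 (14.6) and Col11a2 (11). Another 15 members averaged under 1 TPM.

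**Figure D1:**
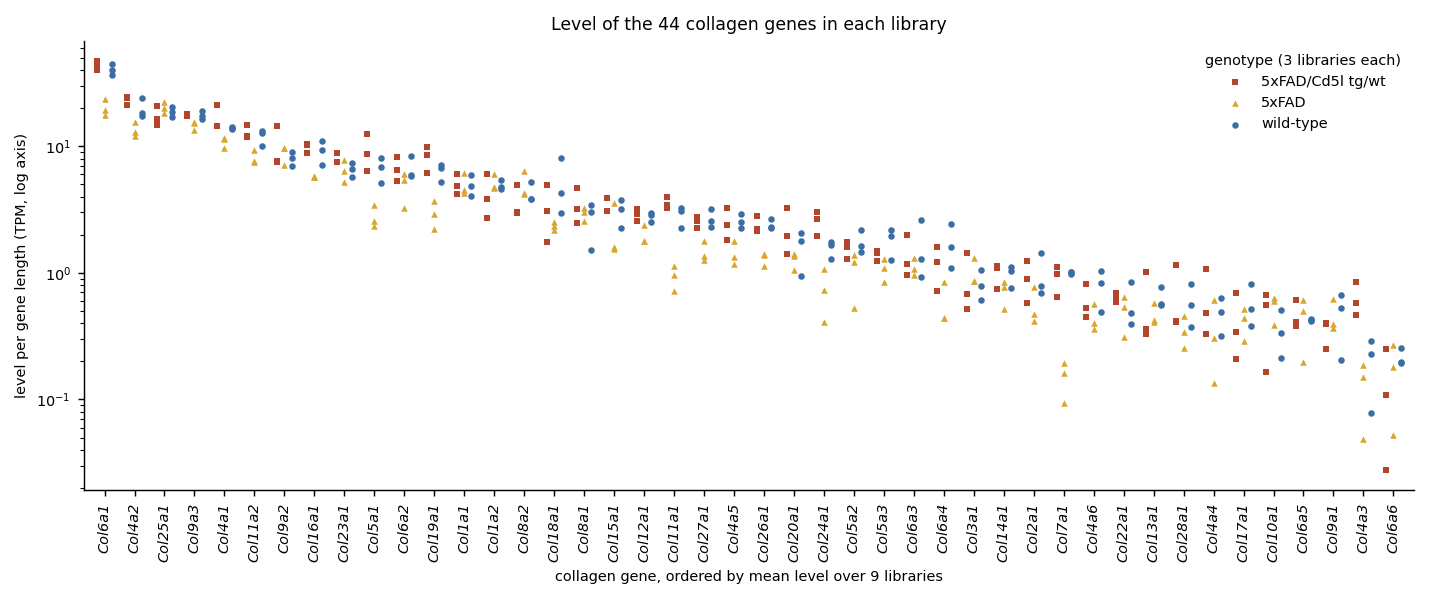
Level of each of the 44 collagen genes in each library, in TPM on a log axis, ordered from the highest mean level to the lowest; squares are 5xFAD/Cd5l tg/wt, triangles 5xFAD and circles wild-type libraries (3 each). The means run from 34.7 TPM for Col6a1 to 0.171 TPM for Col6a6, and in Col11a1 and Col7a1 the 3 triangles lie well below the other points.

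In 5xFAD/Cd5l tg/wt compared with 5xFAD brains, 13 of the 42 tested collagen genes (31.0%) rose and none fell at an adjusted p under 0.05. Over all 17575 tested genes, 5.34% rose and 0.888% fell. The 13 were Col4a1, Col4a2, Col4a3, Col5a1, Col6a1, Col7a1, Col11a1, Col11a2, Col16a1, Col19a1, Col24a1, Col26a1 and Col27a1. Of these, Col4a3 passed the filter on low counts only through its 5xFAD/Cd5l tg/wt libraries. Log2 fold changes are given ± SE, and a value over 5xFAD is that of 5xFAD/Cd5l tg/wt against 5xFAD brains. The log2 fold change was positive in 35 of the 42 members, with a median of 0.53 against 0.01 over all tested genes. In 16 members every 5xFAD/Cd5l tg/wt library lay above every 5xFAD library, against 16.6% of all tested genes that did so. Of the 13, 6 (Col4a2, Col5a1, Col6a1, Col7a1, Col11a1 and Col19a1) passed under all 20 other settings tried. The count of risers was 7 without 5xFAD replicate 1, 8 without 5xFAD replicate 2 and 9 without 5xFAD/Cd5l tg/wt replicate 3. In these fits 1.81%, 1.67% and 2.73% of all tested genes were called in either direction, against 6.23% in the main test.

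In 5xFAD compared with wild-type brains, 9 of the 42 members (21.4%) fell and none rose, where 2.44% of all tested genes fell and 1.06% rose. The 9 were Col4a2, Col5a1, Col6a1, Col7a1, Col11a1, Col16a1, Col19a1, Col26a1 and Col27a1. The log2 fold change was negative in 33 members, with a median of −0.49 against −0.01 over all tested genes. In 18 members every 5xFAD library lay below every wild-type library, against 13.9% of all tested genes that did so. Col6a1, Col7a1 and Col11a1 passed under all 20 other settings. The count was 3 without 5xFAD replicate 1, 5xFAD replicate 2 or wild-type replicate 1, and 4 without wild-type replicate 2. In these fits 1.17%, 1.52%, 2.24% and 1.75% of all tested genes were called in either direction, against 3.5% in the main test. This comparison and the preceding one share the 5xFAD libraries, so their opposite signs are not independent.

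In 5xFAD/Cd5l tg/wt compared with wild-type brains, the comparison that leaves the 5xFAD libraries out of the difference, no member passed, against 1.58% of all tested genes in either direction. With edgeR 3 of the 42 tested members had an unadjusted p under 0.05, as did 2177 of all 17575 tested genes. DESeq2 and limma-voom also called no member. The median log2 fold change was 0.05. In 5 members (Col4a1, Col4a3, Col11a1, Col23a1 and Col24a1) every 5xFAD/Cd5l tg/wt library lay above every wild-type library, against 7.93% of all tested genes that did so. The largest log2 difference was that of Col4a3, 1.64 ± 0.48 (adjusted p = 0.145). Col4a1 was at 0.45 ± 0.13 (adjusted p = 0.150), and passed when 5xFAD/Cd5l tg/wt replicate 1 was left out (0.62 ± 0.09, adjusted p = 0.00275). With no filter on low counts Col4a1 and Col4a3 passed as higher and Col18a1 as lower. Calls made only by that fit are weak here and below, as it also called genes that were high in 1 library.

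**Figure D2:**
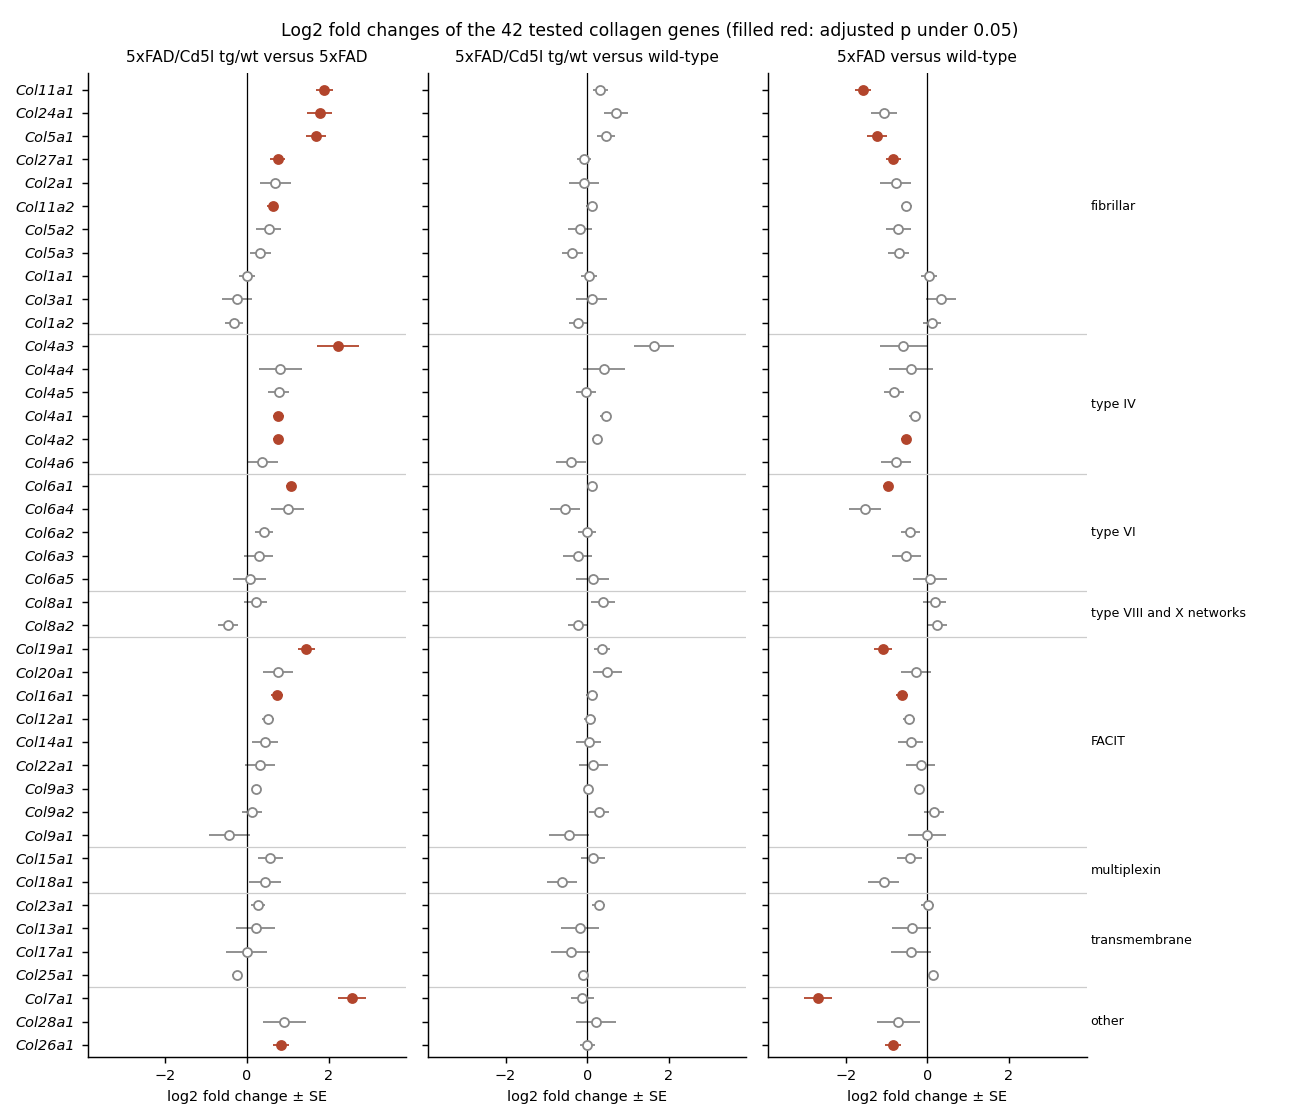
Log2 fold change ± SE of the 42 tested collagen genes in the 3 comparisons, grouped by collagen class, with filled red points for an adjusted p under 0.05. The left panel has 13 filled points right of 0, the middle panel none, and the right panel 9 filled points left of 0.

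Of the 6 type IV genes, 3 (50%) rose in 5xFAD/Cd5l tg/wt compared with 5xFAD brains. The 3 include Col4a3, which passed the filter on low counts only through its 5xFAD/Cd5l tg/wt libraries, and this limits the share. In 5xFAD compared with wild-type brains, 1 (16.7%) fell. Of all tested genes, 5.34% rose and 2.44% fell in these comparisons, shares that also stand beside the counts of the other classes below. Col4a1 (chromosome 8, 11248423 to 11362826 in GRCm39, minus strand) and Col4a2 (chromosome 8, 11362805 to 11499287, plus strand) encode the 2 chains of the type IV trimer found in nearly all basement membranes. They are transcribed away from each other, and their annotated ends overlap by 22 bases. Their promoters, as RefSeq places them on GRCm38.p6 (250 bases before to 50 after each start), share 78 bases, since the starts lie 21 bases apart. They are printed because both genes rose, beside the promoters of Col7a1, which had the largest change in the family, and Col25a1, which did not pass in any comparison. Capitals mark the GC box (GGGCGG or CCGCCC) and the CCAAT box (CCAAT or ATTGG), searched on both strands with TATAAA (or TTTATA), which none of these 4 windows holds.
Col4a1, chr8:11312777-11313076, minus strand: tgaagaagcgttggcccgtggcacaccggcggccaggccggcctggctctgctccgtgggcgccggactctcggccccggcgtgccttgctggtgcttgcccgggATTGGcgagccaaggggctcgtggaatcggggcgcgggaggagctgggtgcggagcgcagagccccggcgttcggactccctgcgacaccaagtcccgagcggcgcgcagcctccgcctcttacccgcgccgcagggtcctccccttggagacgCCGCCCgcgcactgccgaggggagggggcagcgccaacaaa
Col4a2, chr8:11312555-11312854, plus strand: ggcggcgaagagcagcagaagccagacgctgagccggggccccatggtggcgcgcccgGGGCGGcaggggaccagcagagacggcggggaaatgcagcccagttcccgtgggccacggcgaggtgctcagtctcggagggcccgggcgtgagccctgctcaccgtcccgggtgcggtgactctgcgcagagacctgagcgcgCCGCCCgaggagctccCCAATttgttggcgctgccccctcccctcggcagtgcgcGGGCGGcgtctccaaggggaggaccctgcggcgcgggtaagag
Col7a1, chr9:108953336-108953635, plus strand: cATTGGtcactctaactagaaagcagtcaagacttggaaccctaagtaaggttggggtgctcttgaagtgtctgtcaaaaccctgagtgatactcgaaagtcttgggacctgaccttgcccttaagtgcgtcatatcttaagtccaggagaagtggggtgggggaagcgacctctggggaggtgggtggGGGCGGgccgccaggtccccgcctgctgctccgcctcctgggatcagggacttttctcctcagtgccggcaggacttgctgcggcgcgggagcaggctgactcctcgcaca
Col25a1, chr3:130180595-130180894, plus strand: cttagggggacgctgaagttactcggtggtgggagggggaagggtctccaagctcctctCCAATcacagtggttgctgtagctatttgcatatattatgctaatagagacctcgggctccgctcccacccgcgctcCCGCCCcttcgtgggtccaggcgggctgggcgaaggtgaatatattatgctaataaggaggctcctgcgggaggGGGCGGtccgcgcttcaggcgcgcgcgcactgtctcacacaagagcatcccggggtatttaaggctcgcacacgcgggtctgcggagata
The Col4a2 window held 3 GC boxes and the Col4a1 window 1, and each held 1 CCAAT box. The GC box of Col4a1 lies in the 78 shared bases and is the same site as the last GC box printed for Col4a2. It is therefore counted in both windows, here and in the shares below. Col7a1 had 1 of each, and Col25a1 had 2 GC boxes and 1 CCAAT box. Promoters were found for 35 of the 44 members (38 windows). A GC box was present in 60.5% of these windows, against 35.7% of all 32851 promoter windows in the table, a CCAAT box in 34.2% against 37.4%, and TATAAA in 13.2% against 13.6%. Among members that passed in a comparison, 72.7% of 11 windows held a GC box, and 55.6% of 27 windows of the other members did. These are letter matches only. The median GC content was 59.8% in the members' windows and 52.7% in all windows.

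Col4a2 had 37.5, 43.0 and 42.9 CPM in 5xFAD/Cd5l tg/wt brains, 23.6, 21.8 and 27.6 CPM in 5xFAD and 32.0, 42.2 and 30.8 CPM in wild-type brains. Every 5xFAD library lay below every library of the other genotypes. The log2 fold change was 0.76 ± 0.13 (adjusted p = 0.00525) for 5xFAD/Cd5l tg/wt against 5xFAD and −0.53 ± 0.13 (adjusted p = 0.0453) for 5xFAD against wild-type, and the second call was lost under 13 of the 20 other settings (adjusted p 0.0508 to 0.212), among them the fit of only those 6 libraries and those without 5xFAD replicate 1 or 2, wild-type replicate 1 or 2, or 5xFAD/Cd5l tg/wt replicate 2 or 3.
Col4a1 had 28.6, 41.9 and 42.6 CPM in 5xFAD/Cd5l tg/wt brains, 20.0, 23.7 and 22.8 CPM in 5xFAD and 27.7, 27.9 and 27.0 CPM in wild-type brains. The wild-type libraries lay close together just below the lowest 5xFAD/Cd5l tg/wt library, which was well below its group's other libraries. Col4a1 rose by 0.77 ± 0.14 on the log2 scale over 5xFAD (adjusted p = 0.00679), a call lost without 5xFAD replicate 1 (0.0549) and without the 3 libraries that stood apart. Its value for 5xFAD against wild-type was −0.31 ± 0.14 (adjusted p = 0.284). The TPM ratio of Col4a1 to Col4a2 was 0.675, 0.863 and 0.880 in 5xFAD/Cd5l tg/wt, 0.750, 0.965 and 0.734 in 5xFAD and 0.769, 0.585 and 0.777 in wild-type brains. The ratios of the genotypes overlapped (exact two-sided permutation p 0.5 to 1, where 3 against 3 libraries cannot go below 0.1).

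Col4a3, Col4a4 and Col4a5 encode the chains of the trimer best known from the filtration barrier of the kidney. Col4a3 had 23, 18 and 40 counts in 5xFAD/Cd5l tg/wt, 2, 9 and 6 counts in 5xFAD and 13, 10 and 3 counts in wild-type brains. Only the 5xFAD/Cd5l tg/wt libraries and wild-type replicate 1 had more than 10 counts. Col4a3 thus entered the test through the group where it was high, which limits its call. Its 5xFAD/Cd5l tg/wt libraries lay above all others, and it rose over 5xFAD by 2.23 ± 0.51 (adjusted p = 0.0242). That call was lost without any 1 of the 3 5xFAD libraries, without 5xFAD/Cd5l tg/wt replicate 3 and without the 3 libraries that stood apart (adjusted p 0.0569 to 0.116). The lncRNA C430014B12Rik overlaps Col4a3 on the opposite strand with 81 counts over all libraries, against 124 for Col4a3. Whether counting used strand is not given in the sources used here, so reads in the overlap cannot be assigned with certainty. Col4a4, which starts 71 bases from Col4a3 on the other strand, had 0.932, 1.35 and 3.05 CPM in 5xFAD/Cd5l tg/wt brains, 0.397, 1.74 and 0.870 CPM in 5xFAD and 1.74, 1.40 and 0.899 CPM in wild-type brains and did not pass (0.81 ± 0.53 for 5xFAD/Cd5l tg/wt against 5xFAD, adjusted p = 0.393). Col4a5 had 5.79, 3.24 and 4.34 CPM in 5xFAD/Cd5l tg/wt brains, 2.45, 2.13 and 3.21 CPM in 5xFAD and 3.95, 4.50 and 5.25 CPM in wild-type brains; its libraries did not overlap between 5xFAD and either other genotype, yet it did not pass (0.78 ± 0.25 over 5xFAD, adjusted p = 0.0914, and −0.82 ± 0.25 in 5xFAD against wild-type, adjusted p = 0.115). With no filter on low counts it passed in both (adjusted p = 0.0437 over 5xFAD and 0.0391 in 5xFAD against wild-type). Its head-to-head neighbour Col4a6 averaged 1.30 CPM and did not pass (0.38 ± 0.38 over 5xFAD, adjusted p = 0.599).

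Among the 11 fibrillar genes, 5 rose in 5xFAD/Cd5l tg/wt compared with 5xFAD brains and 3 fell in 5xFAD compared with wild-type brains. They belong to the minor fibrillar types V, XI, XXIV and XXVII, which are known for setting the diameter of fibrils or from cartilage and bone. Col11a1 (chromosome 3, 113824189 to 114014367, plus strand), a chain of cartilage fibrils, had 10.99, 13.3 and 11.8 CPM in 5xFAD/Cd5l tg/wt brains, 3.97, 2.47 and 3.28 CPM in 5xFAD and 10.8, 10.52 and 7.67 CPM in wild-type brains. Each 5xFAD library was far below every library of the other genotypes. Col11a1 was 3.74-fold higher in 5xFAD/Cd5l tg/wt than in 5xFAD brains (1.90 ± 0.20, adjusted p = 0.000323) and fell by 1.58 ± 0.20 in 5xFAD compared with wild-type (adjusted p = 0.000863). Its partner chain Col11a2 had 27.0, 22.1 and 22.1 CPM in 5xFAD/Cd5l tg/wt brains, 14.2, 14.2 and 17.4 CPM in 5xFAD and 23.9, 23.4 and 18.4 CPM in wild-type brains. It rose over 5xFAD (0.64 ± 0.13, adjusted p = 0.0167), a call lost without 5xFAD replicate 1 (adjusted p = 0.105) or replicate 2 (adjusted p = 0.0983). Against wild-type its 5xFAD libraries were lower without overlap, with a value that did not pass (−0.52 ± 0.14, adjusted p = 0.0566). It passed as lower there under 6 of the 20 other settings (adjusted p 0.00353 to 0.0399), with DESeq2, no filter on low counts or an offset for GC content, without the 3 libraries that stood apart, and without wild-type replicate 3 or 5xFAD/Cd5l tg/wt replicate 1.

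Col5a1 (chromosome 2, 27776437 to 27929526, plus strand), a chain of the type V collagen that starts type I fibrils, had 14.4, 28.2 and 19.9 CPM in 5xFAD/Cd5l tg/wt brains, 6.09, 5.39 and 7.96 CPM in 5xFAD and 18.1, 15.6 and 11.6 CPM in wild-type brains. The 5xFAD/Cd5l tg/wt libraries ranged most widely, and the 5xFAD libraries were again the lowest. Col5a1 rose by 1.69 ± 0.24 (adjusted p = 0.00196) over 5xFAD and was at −1.23 ± 0.25 (adjusted p = 0.0170) in 5xFAD against wild-type, where it missed the threshold without 5xFAD replicate 1 or 2 or wild-type replicate 1 or 2 (adjusted p 0.0538 to 0.0939). Its partner chain Col5a2 had 4.13, 4.45 and 3.33 CPM in 5xFAD/Cd5l tg/wt brains, 1.39, 3.14 and 3.61 CPM in 5xFAD and 3.66, 4.20 and 5.60 CPM in wild-type brains, and did not pass (0.54 ± 0.31 over 5xFAD, adjusted p = 0.327).
Col24a1, a fibrillar collagen of developing bone and cortex, had 3.995, 6.14 and 5.42 CPM in 5xFAD/Cd5l tg/wt brains, 1.52, 0.842 and 2.21 CPM in 5xFAD and 2.56, 3.59 and 3.39 CPM in wild-type brains. The 3 genotypes did not overlap, with 5xFAD lowest and 5xFAD/Cd5l tg/wt highest. Col24a1 rose over 5xFAD (1.78 ± 0.31, adjusted p = 0.00650) and lost that call without the 3 libraries that stood apart, where 1 5xFAD/Cd5l tg/wt mouse is left. It did not pass in 5xFAD against wild-type (−1.07 ± 0.32, adjusted p = 0.103) except with DESeq2 (0.0436) or no filter on low counts (0.00918). Col27a1, known from growth-plate cartilage, had 7.79, 9.44 and 8.97 CPM in 5xFAD/Cd5l tg/wt brains, 4.90, 4.49 and 6.22 CPM in 5xFAD and 10.9, 7.96 and 8.92 CPM in wild-type brains. It changed by 0.75 ± 0.18 (adjusted p = 0.0291) over 5xFAD, and by −0.83 ± 0.18 (adjusted p = 0.0229) in 5xFAD against wild-type. The first of these calls was lost under 6 of the 20 settings (adjusted p 0.0545 to 0.225), namely without 5xFAD replicate 1 or 2, without 5xFAD/Cd5l tg/wt replicate 2 or 3, without the 3 libraries that stood apart and with an offset for gene length, and the second without 5xFAD replicate 1 or 2 or wild-type replicate 1 (0.0892 to 0.126).

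The major fibrillar genes, which encode the bulk collagen of connective tissue, passed in no comparison. Col1a1 had 10.6, 7.28 and 8.63 CPM in 5xFAD/Cd5l tg/wt brains, 7.74, 7.97 and 10.8 CPM in 5xFAD and 10.2, 8.57 and 7.05 CPM in wild-type brains. The genotypes overlapped throughout, and the differences were −0.00 ± 0.20 (adjusted p = 0.998), 0.04 ± 0.20 (adjusted p = 0.966) and 0.04 ± 0.20 (adjusted p = 0.955) in 5xFAD/Cd5l tg/wt over 5xFAD, in 5xFAD/Cd5l tg/wt over wild-type and in 5xFAD over wild-type. Col1a2, the other chain of type I collagen, had 20.0, 8.97 and 12.9 CPM in 5xFAD/Cd5l tg/wt brains, 16.4, 15.7 and 20.2 CPM in 5xFAD and 15.6, 15.2 and 17.9 CPM in wild-type brains and did not pass (−0.32 ± 0.22 over 5xFAD, adjusted p = 0.429). Without 5xFAD/Cd5l tg/wt replicate 1, the highest library, Col1a2 passed as lower than in 5xFAD (−0.66 ± 0.17, adjusted p = 0.0277). Col3a1, the single chain of type III collagen, had 3.73, 1.35 and 1.81 CPM in 5xFAD/Cd5l tg/wt brains, 2.32, 2.30 and 3.48 CPM in 5xFAD and 1.57, 2.07 and 2.77 CPM in wild-type brains, also with overlap. The TPM ratio of Col1a1 to Col1a2 was 1.00, 1.54 and 1.27 in 5xFAD/Cd5l tg/wt, 0.897, 0.964 and 1.02 in 5xFAD and 1.24, 1.07 and 0.746 in wild-type brains (exact two-sided permutation p 0.2 to 0.8, smallest possible 0.1).

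Col6a1 (chromosome 10, 76544626 to 76562002, minus strand), 1 of the chains of type VI beaded filaments, was the family's highest gene per length and the 1 of 5 tested type VI genes that changed. It had 55.0, 50.6 and 47.1 CPM in 5xFAD/Cd5l tg/wt brains, 23.4, 20.8 and 28.0 CPM in 5xFAD and 51.5, 46.5 and 42.5 CPM in wild-type brains. The highest 5xFAD library, replicate 3, was still well below the lowest library of the other genotypes. Col6a1 was 2.12-fold higher in 5xFAD/Cd5l tg/wt than in 5xFAD brains (1.08 ± 0.11, adjusted p = 0.000323) and 1.95-fold lower in 5xFAD than in wild-type brains (−0.96 ± 0.11, adjusted p = 0.000556), while the log2 difference from wild-type in 5xFAD/Cd5l tg/wt brains was 0.12 ± 0.11 (adjusted p = 0.732). Col6a2, whose chain joins the same trimer and whose gene lies 85.2 kb away, had 14.4, 18.2 and 11.8 CPM in 5xFAD/Cd5l tg/wt brains, 13.8, 7.29 and 12.2 CPM in 5xFAD and 18.3, 13.3 and 12.8 CPM in wild-type brains. Its libraries overlapped between genotypes and it did not pass (0.42 ± 0.23 over 5xFAD, adjusted p = 0.311). The TPM ratio of Col6a1 to Col6a2 was 7.27, 5.28 and 7.55 in 5xFAD/Cd5l tg/wt, 3.22, 5.43 and 4.37 in 5xFAD and 5.36, 6.67 and 6.32 in wild-type brains (exact two-sided permutation p = 0.2 for 5xFAD/Cd5l tg/wt against 5xFAD and for 5xFAD against wild-type), so that an unequal change of the 2 chains was not shown. Col6a3, a larger chain of the same trimer, had 6.39, 3.71 and 3.10 CPM in 5xFAD/Cd5l tg/wt brains, 3.51, 3.09 and 4.22 CPM in 5xFAD and 8.26, 4.13 and 2.97 CPM in wild-type brains and did not pass (0.29 ± 0.36 over 5xFAD, adjusted p = 0.684). Col6a4, named after its values were seen, had 2.80, 3.57 and 1.64 CPM in 5xFAD/Cd5l tg/wt brains, 1.99, 1.01 and 1.00 CPM in 5xFAD and 3.55, 5.53 and 2.49 CPM in wild-type brains, with −1.54 ± 0.39 (adjusted p = 0.0517) in 5xFAD against wild-type. It passed under 8 of the 20 other settings (adjusted p 5.14e-05 to 0.0481), with DESeq2, no filter, the replicate block or the 6 libraries alone, without the 3 libraries that stood apart, and without wild-type replicate 3 or 5xFAD/Cd5l tg/wt replicate 1 or 3. With no filter it also passed as higher over 5xFAD (adjusted p = 0.0338).

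Of the 9 FACIT genes, 2 rose in 5xFAD/Cd5l tg/wt compared with 5xFAD and fell in 5xFAD compared with wild-type brains. Col19a1 (chromosome 1, 24300971 to 24626553, minus strand), which in mouse brain is made by subsets of neurons, had 11.4, 17.9 and 15.7 CPM in 5xFAD/Cd5l tg/wt brains, 4.17, 5.39 and 6.83 CPM in 5xFAD and 12.7, 12.4 and 9.61 CPM in wild-type brains. All 5xFAD libraries were below all others. Its log2 fold changes were 1.46 ± 0.21 (adjusted p = 0.00193) over 5xFAD, and −1.09 ± 0.21 (adjusted p = 0.0149) in 5xFAD against wild-type, where it missed the threshold without 5xFAD replicate 1 or 2 or wild-type replicate 1 or 2 (0.0540 to 0.0851). Col16a1, a collagen at the edge of fibrils in skin and cartilage, had 18.3, 15.7 and 18.9 CPM in 5xFAD/Cd5l tg/wt brains, 10.7, 10.7 and 10.4 CPM in 5xFAD and 19.4, 16.7 and 12.7 CPM in wild-type brains. Its 5xFAD libraries were nearly equal and below all others. It rose over 5xFAD (0.74 ± 0.15, adjusted p = 0.0131; 0.0649 to 0.0752 without 5xFAD replicate 1 or 2 or 5xFAD/Cd5l tg/wt replicate 3) and fell in 5xFAD against wild-type (−0.63 ± 0.15, adjusted p = 0.0384), a call lost under 10 of the 20 settings, including each fit without a 5xFAD library, wild-type replicate 1 or 2 or 5xFAD/Cd5l tg/wt replicate 3 (0.0575 to 0.163).

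Col9a3, a chain of the cartilage collagen type IX and the highest FACIT gene, had 17.9, 17.8 and 18.8 CPM in 5xFAD/Cd5l tg/wt brains, 16.6, 15.8 and 13.9 CPM in 5xFAD and 19.1, 17.0 and 17.6 CPM in wild-type brains. Its 5xFAD libraries were lower without overlap, but the difference was small (0.24 ± 0.11 for 5xFAD/Cd5l tg/wt against 5xFAD, adjusted p = 0.21). Its partner chains Col9a2 (0.13 ± 0.24, adjusted p = 0.8) and Col9a1 (−0.43 ± 0.50, adjusted p = 0.647) did not pass over 5xFAD. Col12a1, a collagen of tendon and ligament, had 11.8, 10.3 and 13.03 CPM in 5xFAD/Cd5l tg/wt brains, 7.41, 7.35 and 9.90 CPM in 5xFAD and 11.9, 11.6 and 10.2 CPM in wild-type brains. It was lower in every 5xFAD library than in any other and did not pass (0.52 ± 0.16 over 5xFAD, adjusted p = 0.0734), except without 5xFAD replicate 3 (0.0372).

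Of the 3 members outside the named classes, Col7a1 and Col26a1 rose in 5xFAD/Cd5l tg/wt compared with 5xFAD and fell in 5xFAD compared with wild-type brains. Col7a1 (chromosome 9, 108782654 to 108813943, plus strand), which forms the anchoring fibrils beneath the epidermis, had the family's largest change. It had 46, 26 and 48 counts in 5xFAD/Cd5l tg/wt, 4, 8 and 8 counts in 5xFAD and 45, 46 and 40 counts in wild-type brains, or 2.51 ± 0.677 CPM in 5xFAD/Cd5l tg/wt brains, 0.416 ± 0.138 CPM in 5xFAD and 2.73 ± 0.0967 CPM in wild-type brains (mean ± SD, n = 3 each). Col7a1 was thus a low gene, at 0.688 TPM over all libraries, and its 5xFAD libraries held few reads. It was 5.93-fold higher in 5xFAD/Cd5l tg/wt than in 5xFAD brains (2.57 ± 0.35, adjusted p = 0.00131) and 6.43-fold lower in 5xFAD than in wild-type brains (−2.68 ± 0.34, adjusted p = 0.000901), and both calls passed without each library in turn. The log2 difference from wild-type in 5xFAD/Cd5l tg/wt brains was −0.12 ± 0.28 (adjusted p = 0.911). Col26a1, first described in testis and ovary, had 4.66, 4.79 and 6.21 CPM in 5xFAD/Cd5l tg/wt brains, 3.18, 2.52 and 3.08 CPM in 5xFAD and 5.70, 4.99 and 4.91 CPM in wild-type brains. It rose over 5xFAD (0.84 ± 0.20, adjusted p = 0.0259) and fell in 5xFAD against wild-type (−0.83 ± 0.20, adjusted p = 0.0358). These calls were lost under 6 and 8 of the 20 settings, each fit without a 5xFAD library among them in both (adjusted p 0.0508 to 0.202 and 0.0545 to 0.175). The first was also lost without 5xFAD/Cd5l tg/wt replicate 2 or 3 and without the 3 libraries that stood apart, and the second without any wild-type library, with the replicate block and with an offset for gene length.

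**Figure D3:**
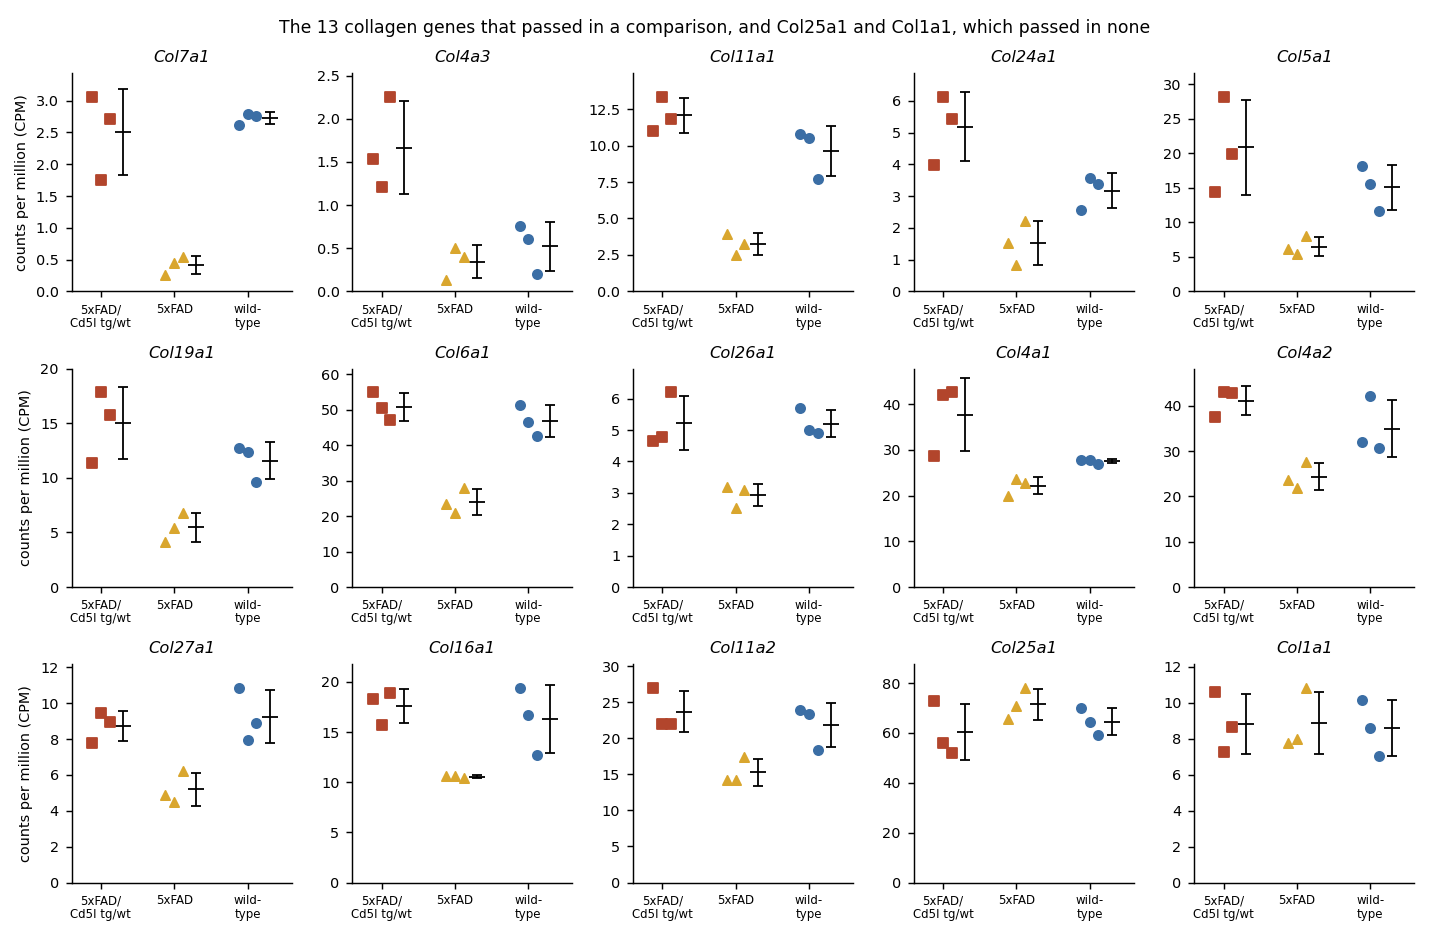
CPM of the 13 collagen genes that passed in a comparison, and of Col25a1 and Col1a1, in each library; the bars give the mean ± SD of the 3 libraries of a genotype. In Col7a1 the 3 triangles of 5xFAD lie at 0.265 to 0.535 CPM, below all others, while the genotypes overlap in Col25a1 and Col1a1.

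No gene of the transmembrane, multiplexin or type VIII and X classes passed in any comparison. Col25a1 (chromosome 3, 129925150 to 130393526, plus strand), the precursor of the plaque component, had 72.9, 56.2 and 51.8 CPM in 5xFAD/Cd5l tg/wt brains, 65.8, 70.8 and 78.2 CPM in 5xFAD and 70.0, 64.4 and 59.3 CPM in wild-type brains. All 3 genotypes overlapped. The values were −0.25 ± 0.12 (adjusted p = 0.246) for 5xFAD/Cd5l tg/wt against 5xFAD, −0.10 ± 0.12 (adjusted p = 0.804) in 5xFAD/Cd5l tg/wt over wild-type and 0.15 ± 0.12 (adjusted p = 0.611) for 5xFAD against wild-type. Without 5xFAD/Cd5l tg/wt replicate 1, whose level was the highest of its group, Col25a1 passed as lower than in 5xFAD brains (−0.41 ± 0.10, adjusted p = 0.0195). Col23a1, another transmembrane collagen, had 11.5, 13.3 and 11.6 CPM in 5xFAD/Cd5l tg/wt brains, 9.99, 8.08 and 12.1 CPM in 5xFAD and 9.94, 8.76 and 11.3 CPM in wild-type brains (0.27 ± 0.16 over 5xFAD, adjusted p = 0.35). As a share of all collagen TPM, Col25a1 made up 6.22 to 8.47% in 5xFAD/Cd5l tg/wt, 12.1 to 13.2% in 5xFAD and 8.25 to 8.51% in wild-type brains. Col6a1 made up 16.8 to 19% in 5xFAD/Cd5l tg/wt, 11.5 to 13.1% in 5xFAD and 17.7 to 18.6% in wild-type brains. The share of Col25a1 in 5xFAD brains was thus the highest without overlap although its own level overlapped.

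Col18a1, the multiplexin of vascular and epithelial basement membranes whose fragment is endostatin, had 9.26, 3.24 and 5.87 CPM in 5xFAD/Cd5l tg/wt brains, 4.57, 4.15 and 4.75 CPM in 5xFAD and 7.79, 5.59 and 15.1 CPM in wild-type brains. The spread within 5xFAD/Cd5l tg/wt and wild-type brains was wide, and neither the change over 5xFAD (0.45 ± 0.38, adjusted p = 0.526) nor that in 5xFAD against wild-type (−1.08 ± 0.38, adjusted p = 0.165) passed. Without the 3 libraries that stood apart, Col18a1 was at 1.04 in 5xFAD/Cd5l tg/wt replicate 1 against 5xFAD brains. With no filter on low counts Col18a1 passed as lower in 5xFAD than in wild-type brains (−1.07 ± 0.21, adjusted p = 1.92e-05). The log2 fold change was nearly that of the main test and only the SE was smaller. The wild-type mean rests in large part on replicate 3, so this call is weak. Slc19a1 overlaps Col18a1 on the opposite strand with 1875 counts against 950. Col15a1, the other multiplexin, had 6.66, 5.12 and 5.30 CPM in 5xFAD/Cd5l tg/wt brains, 2.71, 2.75 and 6.09 CPM in 5xFAD and 6.22, 5.41 and 3.80 CPM in wild-type brains (0.57 ± 0.30 over 5xFAD, adjusted p = 0.29), and passed only without 5xFAD replicate 3 among the settings tried (1.06 ± 0.25, adjusted p = 0.0394). Col8a1 and Col8a2, the network-forming chains of the endothelium and cornea, were at 0.21 ± 0.28 (adjusted p = 0.701) and −0.46 ± 0.25 (adjusted p = 0.297) over 5xFAD.

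Genes that modify, process, bind or accompany collagens were read from the same fit. Over all tested genes, 5.34% rose and 0.888% fell in 5xFAD/Cd5l tg/wt against 5xFAD. Against wild-type, 1.58% passed in 5xFAD/Cd5l tg/wt, while 2.44% fell and 1.06% rose in 5xFAD. Of 31 tested genes of collagen biosynthesis and crosslinking, 3 rose and none fell in 5xFAD/Cd5l tg/wt compared with 5xFAD, none passed against wild-type, and 2 fell in 5xFAD compared with wild-type brains. Their median log2 fold change was 0.05 over 5xFAD, and the 3 risers and 2 fallers were 9.68% and 6.45% of the 31. Without 5xFAD/Cd5l tg/wt replicate 1, 5 rose and 1 fell over 5xFAD. Bmp1, the protease that removes the C-terminal propeptide of fibrillar procollagens, had 42.1, 49.97 and 53.3 CPM in 5xFAD/Cd5l tg/wt brains, 27.4, 28.4 and 27.6 CPM in 5xFAD and 43.5, 44.7 and 55.1 CPM in wild-type brains. Its 5xFAD libraries were nearly equal and the lowest, and it was at 0.80 ± 0.11 (adjusted p = 0.00144) and −0.78 ± 0.11 (adjusted p = 0.00184) in 5xFAD/Cd5l tg/wt against 5xFAD and in 5xFAD against wild-type. P3h3, a member of the prolyl 3-hydroxylase family, was at 0.69 ± 0.11 (adjusted p = 0.00322) and −0.66 ± 0.11 (adjusted p = 0.00615) in these comparisons, and Colgalt1, which adds galactose to hydroxylysine, rose over 5xFAD (0.37 ± 0.08, adjusted p = 0.0143). The Colgalt1 call was lost under 5 of the 20 other settings (adjusted p 0.0528 to 0.116), without 5xFAD replicate 1 or 2, without 5xFAD/Cd5l tg/wt replicate 2 or 3 and without the 3 libraries that stood apart. None of 9 tested genes of collagen degradation passed in any comparison of the main test. Without the 3 libraries that stood apart, only replicate 1 stands for 5xFAD/Cd5l tg/wt, so effect sizes alone are given for that fit. There the metalloproteinase inhibitors Timp3 and Timp4 were at 0.35 and −0.53 in 5xFAD/Cd5l tg/wt against 5xFAD. Timp2 and Timp4 were at 0.47 and −0.49 in 5xFAD/Cd5l tg/wt against wild-type, and Timp2 was at 0.24 in 5xFAD against wild-type. In the fit of only the 6 libraries compared, Timp2 passed as higher in 5xFAD than in wild-type brains (0.26 ± 0.06, adjusted p = 0.0391). With no filter on low counts it passed there too (0.0154). In that fit Timp4 passed as lower in 5xFAD/Cd5l tg/wt against both other genotypes, and Mrc2 as higher against wild-type. Without 5xFAD/Cd5l tg/wt replicate 1, 1 passed as lower against 5xFAD (Timp2) and 1 against wild-type (Timp3). Of 8 tested collagen receptors, Itga1, the collagen-binding integrin chain, rose in 5xFAD/Cd5l tg/wt compared with 5xFAD (0.78 ± 0.21, adjusted p = 0.0441). This call was lost under 10 of the 20 other settings (adjusted p 0.0540 to 0.202), in the fit of the 6 libraries alone, with the replicate block or an offset for gene length, without the 3 libraries that stood apart, and without replicate 2 or 3 of 5xFAD/Cd5l tg/wt or replicate 1 or 2 of 5xFAD or of wild-type. Lair1, an inhibitory collagen receptor of leukocytes, was higher than in wild-type brains in both 5xFAD/Cd5l tg/wt (1.00 ± 0.13, adjusted p = 0.00137) and 5xFAD (0.73 ± 0.13, adjusted p = 0.0113), the second call being lost without 5xFAD replicate 1 (adjusted p = 0.0667).

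Of 16 other basement membrane genes, 5 rose and none fell in 5xFAD/Cd5l tg/wt compared with 5xFAD, none passed against wild-type, and 1 fell in 5xFAD compared with wild-type. The risers made up 31.2% and the faller 6.25% of the list, against 5.34% and 2.44% of all tested genes. The risers were the laminin chains Lama3, Lama4 and Lama5, the heparan sulfate proteoglycan Hspg2 (perlecan) and Agrn (agrin). Agrn had 168, 187 and 176 CPM in 5xFAD/Cd5l tg/wt brains, 121, 125 and 134 CPM in 5xFAD and 177, 173 and 139 CPM in wild-type brains, with 0.48 ± 0.09 (adjusted p = 0.0100) over 5xFAD. Lama5, the gene that fell in 5xFAD against wild-type (−0.89 ± 0.19, adjusted p = 0.0229), was at 0.79 ± 0.19 (adjusted p = 0.0303) over 5xFAD. The fall of Lama5 was not called without 5xFAD replicate 1 or 2 or without wild-type replicate 1 or 2 (adjusted p 0.0829 to 0.128), and the number that fell in this comparison reached 5 with no filter on low counts. The count of 5 risers over 5xFAD ranged from 0 (without 5xFAD replicate 1 or 2) to 6. It was 1 with an offset for gene length or without 5xFAD/Cd5l tg/wt replicate 2 or 3. It was 2 in the fit of the 6 libraries alone or without wild-type replicate 2, and 3 with the replicate block. Without the 3 libraries that stood apart, Lama3, Lama4, Lama5 and Hspg2 lost their calls. Sparc, a collagen-binding matrix protein named after its values were seen, had 466, 254 and 333 CPM in 5xFAD/Cd5l tg/wt brains, 506, 533 and 575 CPM in 5xFAD and 452, 412 and 552 CPM in wild-type brains. Every 5xFAD/Cd5l tg/wt library lay below every 5xFAD library. It did not pass over 5xFAD (−0.62 ± 0.17, adjusted p = 0.0533) but passed as lower under 8 of the 20 other settings, among them RLE scaling, limma-voom and the replicate block. The whole list summed to 825.7, 627.1 and 685.9 CPM in 5xFAD/Cd5l tg/wt brains, 764.1, 802.7 and 867.2 CPM in 5xFAD and 817.2, 766.1 and 856.6 CPM in wild-type brains, with overlap between all genotypes. Sparc alone held 254 to 575 CPM of these sums, so they do not describe the rest of the list. Over 5xFAD, 14 of the 16 genes had a positive log2 fold change and 2, Sparc among them, a negative one. In 5xFAD against wild-type, 15 were negative and 1, Sparc, was positive.

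Markers of vessel cells had lower sums in 5xFAD brains, as the type IV collagens did. The 12 endothelium markers summed to 287.7, 322.8 and 341.1 CPM in 5xFAD/Cd5l tg/wt brains, 178.4, 190.3 and 211.3 CPM in 5xFAD and 290.6, 308.6 and 270.6 CPM in wild-type brains. Of the 12, 7 rose in 5xFAD/Cd5l tg/wt compared with 5xFAD (3 to 10 over the other settings, with 3 without 5xFAD replicate 1 or 2, without 5xFAD/Cd5l tg/wt replicate 2 or 3 or without the 3 libraries that stood apart), none passed against wild-type, and 4 fell in 5xFAD compared with wild-type (2 to 7, with 2 without 5xFAD replicate 1 and 7 without the 3 libraries that stood apart). The 10 mural cell markers summed to 268.3, 243.6 and 248.2 CPM in 5xFAD/Cd5l tg/wt brains, 178.6, 178.9 and 196.2 CPM in 5xFAD and 244.2, 248.4 and 216.3 CPM in wild-type brains. Of them 3 rose in 5xFAD/Cd5l tg/wt compared with 5xFAD (1 to 4 over the other settings, with 1 without 5xFAD replicate 1 or 2 or 5xFAD/Cd5l tg/wt replicate 2), none passed against wild-type, and 1 fell in 5xFAD compared with wild-type (1 to 4, with 4 without the 3 libraries that stood apart). The risers over 5xFAD were 58.3% of the endothelium and 30% of the mural markers, against 5.34% of all tested genes. Those that fell in 5xFAD against wild-type were 33.3% and 10%, against 2.44% of all tested genes. No marker of either list was at 0 in a library. The type IV collagens summed to 76.1 to 96.3 CPM in 5xFAD/Cd5l tg/wt brains, 47.4 to 55.8 CPM in 5xFAD and 65.1 to 78.7 CPM in wild-type brains. The part of vessel content in the collagen values was not tested, and in bulk tissue fewer cells of a type and less RNA per cell cannot be told apart.

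The 10 markers of meningeal and vascular fibroblasts summed to 164.1, 122.2 and 116.6 CPM in 5xFAD/Cd5l tg/wt brains, 122.8, 125.7 and 149.2 CPM in 5xFAD and 138.3, 119.2 and 118.5 CPM in wild-type brains, and none of the 9 tested passed in any comparison, except 1 as lower over 5xFAD without 5xFAD/Cd5l tg/wt replicate 1. 5xFAD/Cd5l tg/wt replicate 1, highest in this sum, was also the highest of its group in Col1a1, Col1a2 and Col3a1. The 8 choroid plexus markers summed to 334.8, 521.8 and 820.9 CPM in 5xFAD/Cd5l tg/wt brains, 602.4, 547.3 and 634.9 CPM in 5xFAD and 782.3, 650.8 and 440.3 CPM in wild-type brains, and none passed. Without the 3 libraries that stood apart, 5xFAD/Cd5l tg/wt is replicate 1 alone, the lowest library in this sum (334.8 CPM). Calls of these markers in that fit are therefore not given. Microglia markers rose in both genotypes with the amyloid transgenes: 7 of 8 in 5xFAD/Cd5l tg/wt and 8 of 8 in 5xFAD passed against wild-type, and none differed at the threshold between 5xFAD/Cd5l tg/wt and 5xFAD. Of all tested genes, 1.58% in 5xFAD/Cd5l tg/wt and 3.5% in 5xFAD passed against wild-type in either direction. The count of microglia markers in 5xFAD was 4 without wild-type replicate 1 or 5xFAD replicate 1 or 3. Without 5xFAD replicate 3, 2 of them passed as higher in 5xFAD/Cd5l tg/wt than in 5xFAD.

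**Figure D4:**
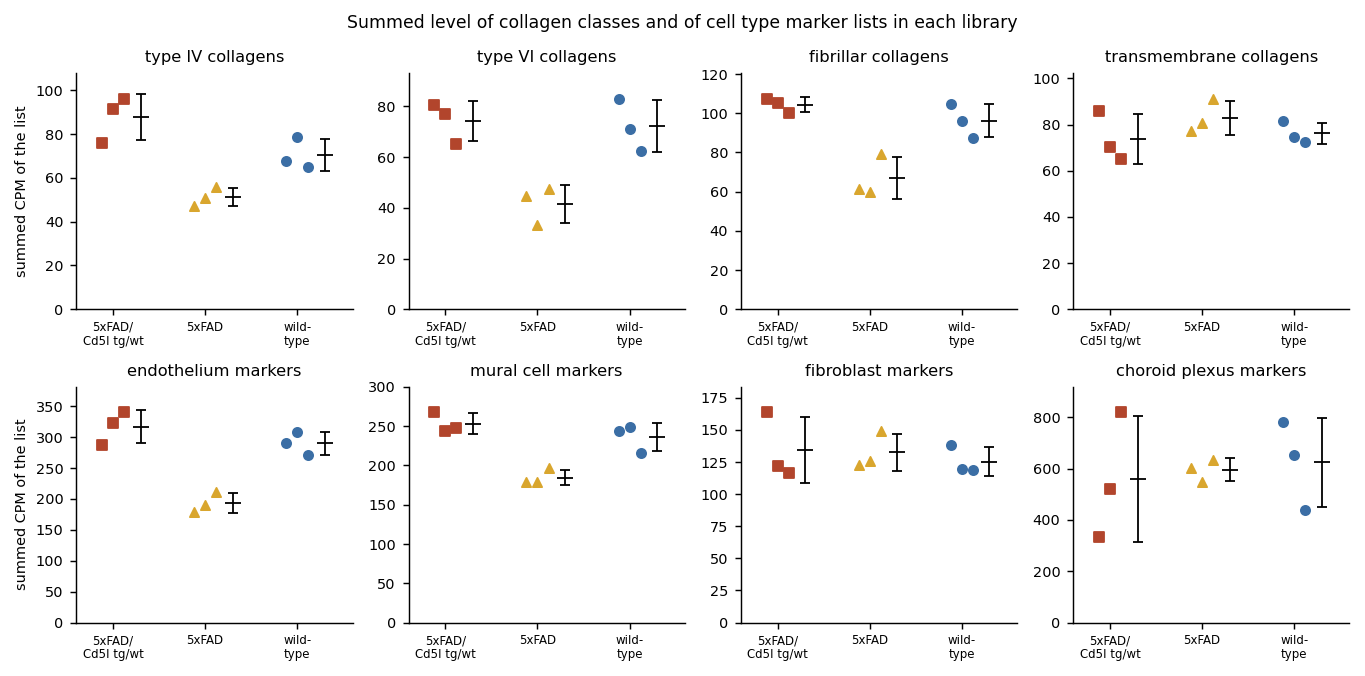
Summed CPM of 4 collagen classes (top row) and of 4 cell type marker lists (bottom row) in each library, with bars for the mean ± SD of the 3 libraries of a genotype. The type IV, type VI and fibrillar sums and the endothelium and mural sums are lowest in the 5xFAD libraries without overlap, while the transmembrane, fibroblast and choroid plexus sums overlap between genotypes.

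The 5xFAD libraries also differed in RNA composition. Genes annotated as lncRNA took 1.39 to 1.65% of the counts in 5xFAD/Cd5l tg/wt, 1.15 to 1.20% in 5xFAD and 1.35 to 1.53% in wild-type libraries. Gene models that await experimental support (TEC) took 0.0969 to 0.121% in 5xFAD/Cd5l tg/wt, 0.0812 to 0.0817% in 5xFAD and 0.0955 to 0.108% in wild-type libraries. Ribosomal RNA genes took 0.0661 to 0.121% in 5xFAD/Cd5l tg/wt, 0.184 to 0.265% in 5xFAD and 0.0584 to 0.255% in wild-type libraries. The part of this in the collagen values was not tested, beyond fits with an offset for a gene property. In 5xFAD/Cd5l tg/wt compared with 5xFAD brains, 12 members passed with an offset for gene length, 13 with one for gene span and 13 with one for GC content. In 5xFAD compared with wild-type brains, 6 passed with an offset for gene length, 7 with one for gene span and 9 with one for GC content.

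The 13 members that passed in a comparison had a median genomic span of 135 kb, a median gene length of 7621 bases and a median GC content of 58.0%, against 105 kb, 7021 bases and 54.5% in the 29 tested members that did not pass. All tested genes had medians of 20.6 kb, 4017 bases and 49.7%. The 13 also had more reads, with a median of 10.7 CPM against 3.72 CPM in the 29. Across the 42 members, Spearman's rho between the log2 fold change and span was 0.29 in 5xFAD/Cd5l tg/wt against 5xFAD and −0.26 in 5xFAD against wild-type. Across all tested genes it was 0.05 in 5xFAD/Cd5l tg/wt against 5xFAD and −0.03 in 5xFAD against wild-type. With gene length, rho was 0.175 in the members and 0.166 over all tested genes in 5xFAD/Cd5l tg/wt against 5xFAD. In 5xFAD against wild-type it was −0.203 in the members and −0.136 over all tested genes. Genes of 1 library share its depth and composition, so these are descriptions. The 44 members lie on 15 chromosomes. Of the neighbouring members, Col4a1 and Col4a2 both rose over 5xFAD (0.77 and 0.76). Col19a1 changed while Col9a1, 9.2 kb away and with 4 to 15 counts a library, was at −0.43 ± 0.50 over 5xFAD. Col6a1 changed while Col6a2 was at 0.42 ± 0.23 over 5xFAD and did not pass.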

How the data were processed

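The authors deposited 1 table of raw read counts per gene for 9 libraries, with gene coordinates, biotypes and lengths, and no normalization was applied before deposit as far as the values show. GRCm39 is the genome build per the submitters' processing notes. Aligner, counting tool and use of strand are not given in the sources used. Groups follow the genotype in the labels. From these counts, genes were kept by filterByExpr (minimum count 10, minimum total 15), scaled by TMM and fitted over all 9 libraries, each genotype with its own coefficient, by the quasi-likelihood test of edgeR (edgeR 4.0.16, limma 3.58.1, R 4.3.3). P-values were Benjamini-Hochberg adjusted over the 17575 tested genes, with a threshold of 0.05, and all adjusted p-values in the text come from this test or the named alternative. The SE is the absolute log2 fold change divided by the square root of F. CPM use the TMM-scaled library sizes, and TPM use the deposited gene lengths. The filtered genes held 99.8% or more of each library's counts. In a library 3 counts correspond to about 0.2 CPM, so that low members have a wide counting error.

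The rule for named genes took every member that passed in a comparison or averaged at least 5 CPM, their partner chains, Col25a1 and the multiplexins, and up to 4 passing genes of each supporting list with the smallest p. The members and lists were chosen with earlier results of these data known. Exact permutation tests compared log2 chain ratios. Promoters came from RefSeq (GRCm38.p6) by gene symbol, and GC content from transcripts of an older annotation matched by Ensembl identifier (98.4% of tested genes). Alternatives were RLE scaling, 2 other filters, DESeq2 1.42.0, limma-voom, fits of 6 libraries, a replicate block, a gene length offset, a fit without 3 libraries, each library left out, and, chosen after seeing the data, offsets for GC content and gene span. The test was checked on simulated counts. Figures were drawn with matplotlib 3.10.9 (Python 3.11.15).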

Additional observations from a re-analysis of the deposited data

How the results depend on the processing

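No collagen result called in the main test changed its direction under any of the 20 alternatives. With no filter on low counts, 3 members passed in 5xFAD/Cd5l tg/wt against wild-type (none in the main test) and 14 in 5xFAD against wild-type (9 in the main test), and the cause was not tested. Of all genes in that fit 3.39% and 4.32% were called, against 1.58% and 3.5% in the main test. It also called Zic1 in 5xFAD against wild-type (adjusted p = 3.61e-18, against 0.403 in the main test). The wild-type levels of Zic1 were 53.2, 41.1 and 195 CPM, so calls made only by that fit are weak. When each library was left out in turn, the number called ran from 7 to 15 in 5xFAD/Cd5l tg/wt against 5xFAD (Col1a2 and Col25a1 are lower among the 15), from 0 to 1 in 5xFAD/Cd5l tg/wt against wild-type and from 3 to 11 in 5xFAD against wild-type. The other settings gave counts within 1.5 times those of the main test. The median log2 fold change of the members ran from 0.43 to 0.66 in 5xFAD/Cd5l tg/wt against 5xFAD and from −0.62 to −0.41 in 5xFAD against wild-type.

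With the replicate number as a block, 13 members were called in 5xFAD/Cd5l tg/wt against 5xFAD, 0 in 5xFAD/Cd5l tg/wt against wild-type and 7 in 5xFAD against wild-type. The correlations of equal-numbered libraries in their deviations from genotype means lay between −0.100 and 0.154. Libraries of unequal number were not compared, so these values do not settle whether the numbers pair the libraries. The 15 members under 1 TPM rest on the fewest counts per length, and what size of change could be detected in them was not measured.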
